A study of Mus musculus with 7 samples.

Results

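The 48 genes described here encode integrins, laminin chains, collagen IV chains, nidogens and the other proteins that hold epidermal cells to the basement membrane. They were chosen by gene symbol from the 15415 genes of the deposited table. Every integrin alpha and beta gene, laminin chain, collagen IV chain and nidogen listed there was taken, together with Col17a1, Npnt, Hspg2, Agrn, Dst, Plec and Cd151. The rule reads gene symbols and no measured value.

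RNA was sequenced from hair follicle cells of mouse back skin in 3 Telogen samples, taken at 45 days of age, and 4 Anagen samples, taken at 35 days. Telogen is the resting phase of the hair cycle and Anagen the growth phase. All mice were labelled C57Bl6 x B10D2, and in both groups live cells positive for green fluorescent protein (read here for Lgr5) and negative for the leukocyte marker CD45 were sorted. Cells were freed with trypsin before sorting. The labels name neither the allele that carries the fluorescent protein nor the number of mice behind a sample. The p-values below therefore reflect only how far these samples spread, some of which may be technical. All Telogen mice were older and all Telogen libraries were shallower (5097457 to 6453337 counts, against 13719893 to 17042690 in Anagen), so age and depth cannot be told apart from hair cycle phase.

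The basement membrane is a thin sheet on which the basal cells of epidermis and hair follicle sit. Laminins, each built of an alpha, a beta and a gamma chain, form one network in it, collagen IV forms the other, and nidogens and the proteoglycan perlecan (Hspg2) bridge them. Cells hold the sheet with integrins, pairs of an alpha and a beta chain that bind laminin outside and the cytoskeleton inside. In hemidesmosomes the pair Itga6 with Itgb4 joins Col17a1 and is tied to keratin filaments by plectin (Plec) and Dst, while Itgb1 pairs work through actin at focal adhesions. Hair follicle stem cells are known for high Itga6, and the sheet around the bulge, the stem cell niche of the follicle, is known to carry nephronectin (Npnt).

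Npnt was 73.2-fold higher in Telogen cells than in Anagen cells, Col17a1 31.8-fold and Lamb3 9.17-fold, and the low-level nidogen Nid2 12.05-fold (5.16-fold and not called without Telogen 1). Itga6, Itgb1 and Itgb6 were 3.42-fold to 4.93-fold higher. Lamb1 was 17.4-fold lower in Telogen, Itgb5 4.92-fold lower and Plec 3.66-fold lower, and no read of Itga7 or Nid1 was counted in any Telogen library. Itgav, Agrn, Itgb4, Cd151 and Col4a5 differed by 1.04-fold to 1.25-fold and did not pass the test. With offsets for GC content and gene length Plec was no longer called, and Agrn and Itgb4 were called higher in Telogen.

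Promoter sequences are shown for 6 of these genes, chosen after their values were seen: 3 that rose strongly at high level (Npnt, Col17a1 and Lamb3), and beta laminin and beta integrin chains that moved in opposite directions. The pairs Lamb3 with Lamb1 and Itgb6 with Itgb5 can be set beside each other. Each line holds the 250 bases before the RefSeq start of the gene in build GRCm38.p6 (mm10), 5′ to 3′ on the strand of the gene, and 34 of the 48 genes had such an entry. Capitals mark matches, on either strand, to the GC box GGGCGG, to the TATA box TATAAA, to the AP-1 motif TGANTCA or to the TCF/LEF motif CTTTGAT.
Npnt, chr3:132950292-132950541, minus strand: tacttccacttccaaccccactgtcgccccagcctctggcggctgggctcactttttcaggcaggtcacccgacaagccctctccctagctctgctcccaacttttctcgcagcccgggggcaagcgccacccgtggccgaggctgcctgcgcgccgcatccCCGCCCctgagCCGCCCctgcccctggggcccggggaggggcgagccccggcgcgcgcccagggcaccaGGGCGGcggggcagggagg
Col17a1, chr19:47692043-47692292, minus strand: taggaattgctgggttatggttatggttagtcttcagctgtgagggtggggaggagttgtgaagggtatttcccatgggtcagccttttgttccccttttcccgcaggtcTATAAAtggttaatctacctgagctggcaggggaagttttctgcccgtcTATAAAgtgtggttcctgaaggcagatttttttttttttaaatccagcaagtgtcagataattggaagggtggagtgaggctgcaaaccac
Lamb3, chr1:193301744-193301993, plus strand: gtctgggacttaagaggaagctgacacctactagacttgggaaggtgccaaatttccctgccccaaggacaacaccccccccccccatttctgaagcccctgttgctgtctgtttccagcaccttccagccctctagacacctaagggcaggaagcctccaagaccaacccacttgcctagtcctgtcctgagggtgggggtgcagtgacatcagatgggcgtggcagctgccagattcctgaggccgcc
Lamb1, chr12:31265043-31265292, plus strand: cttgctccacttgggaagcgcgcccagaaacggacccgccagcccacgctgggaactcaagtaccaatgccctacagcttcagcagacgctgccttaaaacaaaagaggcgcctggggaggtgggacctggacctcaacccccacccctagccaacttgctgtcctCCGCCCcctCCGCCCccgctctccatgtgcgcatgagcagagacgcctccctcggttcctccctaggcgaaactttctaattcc
Itgb6, chr2:60722604-60722853, minus strand: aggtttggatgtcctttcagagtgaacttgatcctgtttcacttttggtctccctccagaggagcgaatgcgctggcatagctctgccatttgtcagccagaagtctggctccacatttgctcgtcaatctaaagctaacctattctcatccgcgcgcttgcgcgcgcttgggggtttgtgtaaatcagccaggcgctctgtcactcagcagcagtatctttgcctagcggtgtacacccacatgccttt
Itgb5, chr16:33829415-33829664, plus strand: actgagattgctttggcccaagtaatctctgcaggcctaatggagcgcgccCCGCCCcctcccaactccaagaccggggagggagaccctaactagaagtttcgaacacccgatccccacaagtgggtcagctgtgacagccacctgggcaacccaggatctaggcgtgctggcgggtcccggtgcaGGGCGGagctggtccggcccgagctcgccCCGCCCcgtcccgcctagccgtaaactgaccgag
The GC box matched 3 times before Npnt, 2 times before Lamb1 and 3 times before Itgb5, and 32.7% of 32851 promoter windows of the same length held it. The letters TATAAA matched 2 times before Col17a1, 140 and 91 bases upstream of its start, against 12.4% of windows with a match. Neither TGANTCA, found in 6.7% of windows, nor CTTTGAT, found in 3.2%, occurred in these 6. The motifs do not overlap each other in these windows. GC content was 74.0% before Npnt and 46.0% before Col17a1, so those windows lay at the ends of the range among the 6. Lamb3 had 58.8% and Lamb1 62.0%, Itgb6 52.0% and Itgb5 65.2%. A match is a description of letters and not a measured binding site.

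Levels are given in CPM, counts set to one library size, and log2 fold changes are Telogen minus Anagen, with standard errors (SE), from edgeR's quasi-likelihood test. A gene was called where its p-value, adjusted by the Benjamini-Hochberg method over 12266 genes tested, was under 0.05. Of the 48 genes, 38 had counts high enough to be tested, and 10 did not: Itga8, Itga9, Itga11, Itgae, Itgb3, Itgb7, Lama2, Lama4, Lamc3 and Col4a4. Of the 38, 12 were called higher in Telogen and 11 lower, against 23.7% higher and 25.8% lower among all genes tested. In all 60.5% of the 38 were called, against 49.5% of all genes, and 20 were called with a fold of at least 2, against 41.3% of all genes. The list was not tested against other genes, and members that passed the expression filter only through one group had to differ. Itga7, Itga2b, Itgb2 and Nid1, with no Telogen counts, were among these. Telogen and Anagen libraries did not overlap for 26 of the 38, against 54.5% of all genes. The median log2 fold change of the 38 was -0.0096, beside -0.094 over all genes tested. With offsets for GC content and gene length the split was 17 higher and 8 lower of 38. Over all genes it was then 2831 higher and 2488 lower of 11884 tested. The median of the per-gene changes in log2 fold change between the runs was 0.15.

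**Figure D1:**
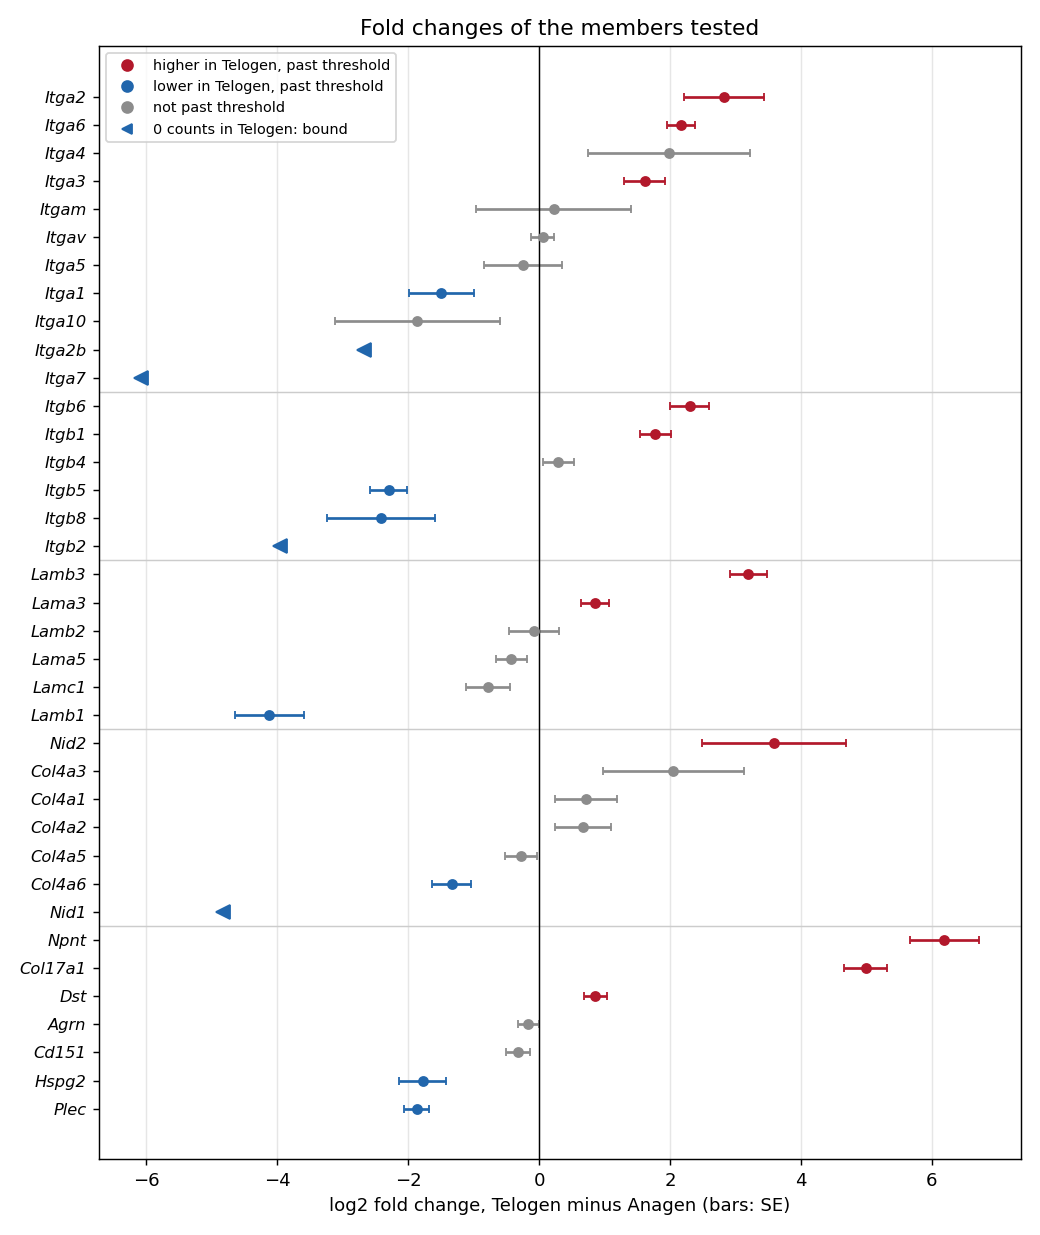
Log2 fold change (Telogen minus Anagen) of tested members, grouped by role, from edgeR's quasi-likelihood test on 3 Telogen and 4 Anagen libraries. Points are estimates, bars are standard errors, colours mark calls at an adjusted p under 0.05 and triangles mark bounds for genes with no Telogen counts, and Npnt and Col17a1 lie farthest right and Itga7 farthest left.

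The sorted cells were checked against marker genes. Summed over 7 bulge and hair germ genes, levels were 10422 to 14229 CPM in Telogen and 2788 to 3557 CPM in Anagen, and over 7 basal keratinocyte genes 14548 to 20085 CPM in Telogen and 34571 to 39061 CPM in Anagen. Krt15 alone gave 6343 to 9972 CPM of the bulge sum in Telogen and 115 to 240.3 CPM in Anagen. Of the 7 bulge genes 5 were called higher and 2 lower, against 23.7% and 25.8% of all genes. The 2 lower were Sox9 (log2 fold change -1.32) and Tcf7l1 (-2.39). Of the 7 basal keratinocyte genes 5 were called lower and 2 were not called (71.4% called, against 49.5% of all genes). Lgr5 itself was at 446 to 473 CPM in Telogen and 24.9 to 82.7 CPM in Anagen. Fibroblast genes (8 in the table) summed to 33.7 to 46.0 CPM in Telogen and 81.7 to 1520 CPM in Anagen. Anagen 1 and Anagen 2 were at 1079 and 1520 CPM, with Col1a1, Col1a2 and Col3a1 at 271, 379 and 313 CPM in Anagen 1. Lum, Dcn and Mfap5 were at 0 in Telogen. Of the 7 tested, 6 were called lower in Telogen (85.7% called, against 49.5% of all genes). Pdgfra went the other way without a call, averaging 2.10 CPM in Telogen (5.52 CPM in Telogen 1) and 0.680 CPM in Anagen. Col1a2 overlapped, at 25.8 to 40.4 CPM in Telogen and 22.7 to 568 CPM in Anagen. Smooth muscle genes (6 in the table) summed to 1.44 to 3.37 CPM in Telogen and 15.6 to 36.3 CPM in Anagen. The 6 endothelial genes summed to 1.28 to 2.85 CPM in Telogen and 2.45 to 10.7 CPM in Anagen, but went both ways. Cdh5 was at 0 in Telogen and 1.95 to 7.86 CPM in Anagen, and Tek averaged 0.324 and 1.05 CPM. Pecam1 had 15 counts in Telogen and 3 in Anagen, and Egfl7 averaged 1.01 CPM in Telogen and 0.255 CPM in Anagen. Kdr and Emcn had 0 counts in Telogen and 2 each in Anagen. In such pooled RNA, fewer cells of a type and less RNA per cell cannot be told apart, and the part of these cell types in the results below was not tested.

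The hemidesmosome genes moved apart. Col17a1, Itga6 and Dst were higher in Telogen, Plec was lower, and Itgb4 and Cd151 did not pass the test. Col17a1 (NM_001290825, mm10 chromosome 19, 47646341 to 47692042), a transmembrane collagen that mice need to keep their hair follicle stem cells, was at 1734, 1661 and 1897 CPM in Telogen, against 64.0, 85.1, 32.7 and 39.7 CPM in Anagen. Every Telogen library thus lay far above every Anagen library, and the fold was 48.7 without Anagen 1 and Anagen 2, the libraries with the highest fibroblast sums. The log2 fold change was 4.99 ± 0.33 (SE; edgeR's quasi-likelihood test, adjusted p = 1.46e-06).

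Itga6 (NM_008397, mm10 chromosome 2, 71786939 to 71858427), the laminin-binding chain of both hemidesmosomes and Itgb1 pairs, was at 631, 882 and 1033 CPM in Telogen, against 162, 232, 185 and 179 CPM in Anagen. The groups were well apart, with a log2 fold change of 2.16 ± 0.21 (edgeR, adjusted p = 1.83e-05). Its hemidesmosome partner Itgb4 was at 73.2, 58.7 and 86.2 CPM in Telogen, against 74.1, 62.0, 46.3 and 54.3 CPM in Anagen. These ranges overlapped, and the log2 fold change of 0.30 ± 0.24 did not pass edgeR's test (adjusted p = 0.326), although with GC and length offsets it was 1.28 (adjusted p = 0.000837).

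Dst, whose epithelial form is the hemidesmosomal plakin that holds keratin, was at 828, 1037 and 937 CPM in Telogen, against 477, 445, 527 and 614 CPM in Anagen. It was 1.81-fold higher with no overlap (log2 fold change 0.86 ± 0.18, edgeR adjusted p = 0.00227), and with GC and length offsets the log2 fold change was 2.502. Reads over the Dst gene do not separate the epithelial form from the neuronal and muscle forms of the same gene. Plec, the other keratin linker, went the opposite way: 60.7, 50.2 and 58.1 CPM in Telogen, against 204, 186, 207 and 226 CPM in Anagen. All Telogen values were below all Anagen values (log2 fold change -1.87 ± 0.19, edgeR adjusted p = 2.32e-05). With GC and length offsets the difference of Plec was -0.23 (adjusted p = 0.266), and its transcript had 61.3% GC, against a median of 49.7% over all genes. Cd151, a tetraspanin that binds laminin-binding integrins, was at 82.3, 96.4 and 81.4 CPM in Telogen, against 113, 105, 106 and 112 CPM in Anagen, without overlap but short of the threshold (-0.33 ± 0.18, edgeR adjusted p = 0.156).

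**Figure D2:**
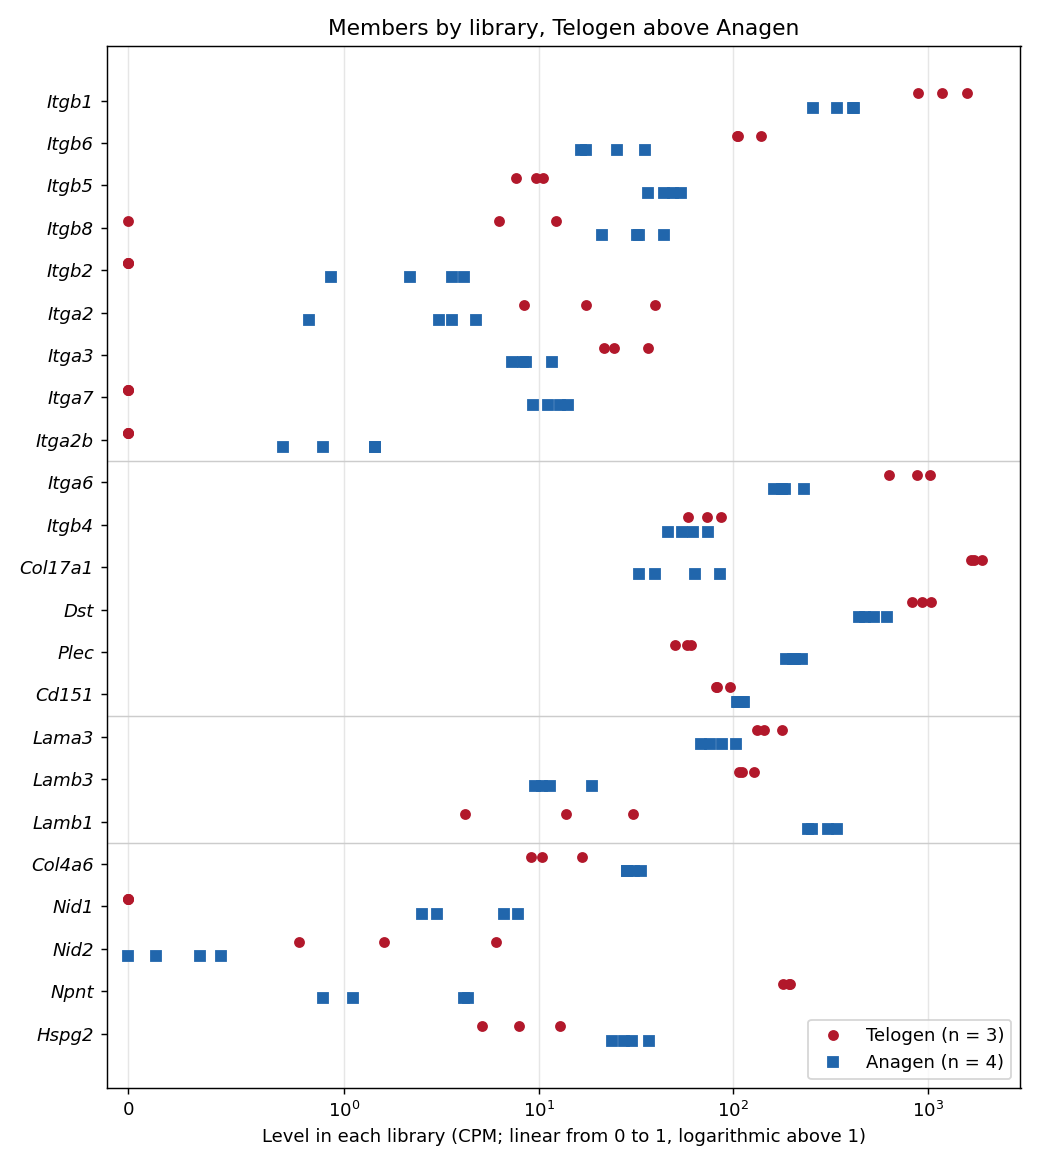
Level in CPM of the members described library by library (axis linear from 0 to 1 and logarithmic above), with the 3 Telogen libraries as circles above the 4 Anagen libraries as squares. Col17a1, Npnt and Lamb3 are higher in every Telogen library and Lamb1 and Plec lower in every Telogen library than in any Anagen library, while Itgb4 overlaps.

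Among beta integrins, which set what an integrin pair can do inside the cell, 2 of 6 tested genes were called higher in Telogen, 3 lower and 1 was not called (83.3% called, against 49.5% of all genes). Itgb1 (NM_010578, mm10 chromosome 8, 128685654 to 128733579), the most widely shared beta chain and a receptor for laminin, collagen and fibronectin, was at 1585, 888 and 1187 CPM in Telogen, against 416, 411, 343 and 257 CPM in Anagen. Its lowest Telogen library still lay above every Anagen library (log2 fold change 1.77 ± 0.24, 3.42-fold, edgeR adjusted p = 0.000151). Itgb6 (NM_001159564, mm10 chromosome 2, 60598292 to 60722603), which pairs with Itgav in epithelia to bind fibronectin and activate latent TGF-beta, was at 138, 105 and 106 CPM in Telogen, against 17.4, 16.5, 35.3 and 25.2 CPM in Anagen. The groups did not overlap (2.30 ± 0.29, edgeR adjusted p = 0.00011).

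Itgb5 and Itgb8, which also pair with Itgav, were lower. Itgb5 (NM_001145884, mm10 chromosome 16, 33829665 to 33949338), a vitronectin receptor chain, was at 7.66, 10.5 and 9.71 CPM in Telogen, against 54.0, 44.2, 36.4 and 48.7 CPM in Anagen (log2 fold change -2.30 ± 0.28, edgeR adjusted p = 8.13e-05). All 3 Telogen values lay below all Anagen values. Itgb8, a chain that binds latent TGF-beta, was at 6.23, 0 and 12.3 CPM in Telogen, against 32.8, 31.9, 21.2 and 44.0 CPM in Anagen. It was 5.33-fold lower without overlap (-2.41 ± 0.83, edgeR adjusted p = 0.0319), with a fold of 3.53 without Telogen 2 and 10.6 without Telogen 3. The call on Itgb8 was lost without Telogen 1, Anagen 1, Anagen 2 or Anagen 4 (5.44-fold, 5.28-fold, 5.33-fold and 4.62-fold, adjusted p = 0.0742, 0.0612, 0.0535 and 0.0799 by edgeR). It was also lost without Anagen 1 and Anagen 2 together (5.33-fold, edgeR adjusted p = 0.108), by DESeq2 (adjusted p = 0.108) and by edgeR without the filter on low counts (adjusted p = 0.0704).

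Itgb2, the beta chain of leukocyte integrins, had no counts in Telogen, against 0.936, 3.58, 2.19 and 4.15 CPM in Anagen, and was at least 15.6-fold lower in Telogen (edgeR adjusted p = 0.00358). Bounds of this kind set 3 counts over the Telogen libraries (0.177 CPM) against Anagen, cover counting error only, and are 1.59 times smaller without Telogen 2. Leukocyte markers, 11 genes summed, were at 5.16 to 32.9 CPM in Telogen and 5.50 to 10.2 CPM in Anagen, with Cd3d, Cd3e, Cd3g and Cd207 at 0 in Anagen and Csf1r at 0 in Telogen. Below the filter were Itgb7, another leukocyte chain, at 0, 0 and 1.19 CPM in Telogen and 0.0720, 0, 0.129 and 0 CPM in Anagen, and Itgb3, the platelet and endothelial chain, at 0 in every library but Anagen 2 (10 counts).

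Summed per kilobase of gene length, which lets chains be set beside each other, Itgb1 held a larger part of the beta chains in every Telogen library than in any Anagen library. It made up 87.5 ± 1.78% of the summed beta chain level in Telogen and 67.6 ± 6.49% in Anagen (SD, n = 3 and 4). Itgb5 made up 0.92% in Telogen and 11.3% in Anagen, Itgb8 0.56% in Telogen and 8.59% in Anagen, and Itgb6 7.36% in Telogen and 4.02% in Anagen. These shares sum to a whole, so a large Itgb1 level lowers the others by construction.

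Of 15 alpha integrins, the chains that choose the ligand, 11 were tested, with 3 higher in Telogen (Itga6, Itga2 and Itga3), 3 lower (Itga7, Itga2b and Itga1) and 5 not called. The 54.5% called stand beside 49.5% of all genes. Itga3, a laminin receptor chain of basal keratinocytes, was at 24.4, 21.6 and 36.3 CPM in Telogen, against 7.28, 11.6, 8.57 and 8.29 CPM in Anagen, without overlap (log2 fold change 1.61 ± 0.31, edgeR adjusted p = 0.00158). Itga2, a collagen receptor chain, was at 8.37, 17.4 and 39.8 CPM in Telogen, against 3.60, 4.74, 0.837 and 3.07 CPM in Anagen. It was higher in all 3 Telogen libraries but spread widely among them (2.83 ± 0.61, 7.09-fold, edgeR adjusted p = 0.00319), and the fold was 4.18 without Telogen 3 and 11.1 without Anagen 1 and Anagen 2.

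Itga7, a laminin receptor chain best known from muscle, had no Telogen counts and 9.36, 14.1, 11.1 and 12.9 CPM in Anagen. Its gene lies at chromosome 10, 128933813 to 128958284 of mm10, and it was at least 67.8-fold lower in Telogen (edgeR adjusted p = 3.68e-05). Of the smooth muscle markers, Acta2 was at 0.712, 0 and 0.793 CPM in Telogen and 11.2 to 24.3 CPM in Anagen, and Tagln at 1.44 to 2.58 CPM in Telogen and 3.50 to 12.2 CPM in Anagen. Myh11, Cnn1, Pdgfrb and Lmod1 were at 0 in Telogen and at most 0.837 CPM in any Anagen library. Itga2b, the platelet chain, also had no Telogen counts and 1.44, 1.43, 0.902 and 0.715 CPM in Anagen, so that it was at least 6.42-fold lower (edgeR adjusted p = 0.011). Itga2b passed the expression filter only through Anagen, and its call was lost when replicate numbers were entered as a block. Gp1bb, the single platelet marker in the table, was at 2.97 to 5.52 CPM in Telogen and 2.43 to 5.15 CPM in Anagen. Itga1, another collagen receptor chain, was at 2.49 to 3.04 CPM in Telogen and 4.72 to 13.5 CPM in Anagen (-1.49 ± 0.50, 2.81-fold, edgeR adjusted p = 0.0279). The call was lost without Telogen 1, Telogen 3 or Anagen 3 (2.70-fold, 2.83-fold and 2.13-fold, adjusted p = 0.0655, 0.0539 and 0.111 by edgeR). It was also lost without Anagen 1 and Anagen 2 together (3.28-fold, adjusted p = 0.0713 by edgeR).

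Itgav, the chain that binds RGD sequences in fibronectin and vitronectin and pairs with Itgb5, Itgb6 and Itgb8, was at 232, 288 and 213 CPM in Telogen, against 245, 241, 227 and 228 CPM in Anagen. The log2 fold change was 0.056 ± 0.17 and did not pass the test (edgeR adjusted p = 0.808), and the groups overlapped. In summed alpha chain level per kilobase, Itga6 made up 74.4 ± 3.21% in Telogen and 42.2 ± 3.36% in Anagen, and Itgav 18.9 ± 4.59% in Telogen and 45.0 ± 3.50% in Anagen. Itga5, the fibronectin receptor chain, averaged 4.01 ± 2.07 CPM in Telogen and 4.77 ± 2.94 CPM in Anagen, and Itga4, Itga10 and Itgam each averaged at most 3.15 CPM in both groups without a call. Without Telogen 1, the one Telogen library with Itga10 counts, Itga10 was called lower (edgeR adjusted p = 0.0165). Itga8, the nephronectin receptor of smooth muscle in the arrector pili, had no Telogen counts and 4.11, 2.15, 0 and 0 CPM in Anagen. It was too low to be tested, and the groups overlapped, since all its counts came from Anagen 1 and Anagen 2 (57 and 39). Pooled over libraries, it was at least 8.80-fold lower in Telogen (4.62-fold without Anagen 1), a bound that covers counting error only. Without Anagen 1 and Anagen 2 together no bound can be given. Itga9, a tenascin receptor chain, was at least 6.78-fold lower (4.27-fold without Anagen 4), and Itga11 and Itgae were at or under 0.715 CPM throughout.

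The laminin chains differed most in which beta chain was present: Lamb3 was higher in Telogen and Lamb1 lower. Over the 10 chains summed, levels were 403 to 448 CPM in Telogen and 491 to 593 CPM in Anagen. Lamb3, a chain of the laminin that hemidesmosomes bind (NM_008484, mm10 chromosome 1, 193301994 to 193343878), was at 106, 128 and 111 CPM in Telogen, against 11.4, 18.8, 10.4 and 9.58 CPM in Anagen. Its groups were far apart (log2 fold change 3.20 ± 0.28, 9.17-fold, edgeR adjusted p = 9.03e-06).

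Lamb1 (NM_008482, mm10 chromosome 12, 31265294 to 31329639), the beta chain of the laminins made in embryonic and many adult basement membranes, was at 13.9, 30.7 and 4.16 CPM in Telogen, against 243, 253, 308 and 340.4 CPM in Anagen. Telogen values lay below every Anagen value and differed several-fold among themselves (-4.12 ± 0.53, 17.4-fold, edgeR adjusted p = 0.000111), and the fold was 31.6 without Telogen 2. Lamb2, the third beta chain, averaged 10.7 ± 5.20 CPM in Telogen and 11.2 ± 1.89 CPM in Anagen and was not called (-0.075 ± 0.38, edgeR adjusted p = 0.886). Per kilobase, Lamb3 made up 86.1 ± 5.40% of the summed beta chain level in Telogen and 5.83 ± 2.39% in Anagen, and Lamb1 7.99 ± 5.77% in Telogen and 90.4 ± 3.24% in Anagen (SD, n = 3 and 4).

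Lama3, an alpha chain that assembles with Lamb3, was at 132, 144 and 178 CPM in Telogen, against 75.6, 87.5, 68.1 and 104 CPM in Anagen (0.85 ± 0.21, 1.81-fold, edgeR adjusted p = 0.00666), and without Anagen 1 and Anagen 2 the fold was 1.76 and no longer called on fewer samples (adjusted p = 0.0671). All Telogen values lay above all Anagen values. Lama3 made up 82.6 ± 3.13% of summed alpha chain level per kilobase in Telogen and 67.2 ± 4.10% in Anagen.

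Lama5, the alpha chain of the other main epidermal laminins, was at 26.0, 38.5 and 30.7 CPM in Telogen, against 41.1, 41.9, 44.1 and 43.5 CPM in Anagen, without overlap or a call (-0.42 ± 0.24, edgeR adjusted p = 0.158). With GC and length offsets its sign turned, at 0.96 (adjusted p = 0.00837). Lamc1, the gamma chain that pairs with Lamb1 and Lama5, averaged 23.3 ± 7.77 CPM in Telogen and 40.0 ± 12.4 CPM in Anagen (-0.78 ± 0.34, edgeR adjusted p = 0.0757, and 0.0481 without Telogen 1). The mesenchymal and vascular chains Lama2 and Lama4 and the chain Lamc3 were too low to be tested. Lama2 was at 0, 0.320 and 0.198 CPM in Telogen, against 1.80, 0.772, 0.644 and 0 CPM in Anagen, 4.49 times lower in Telogen by counts (95% interval 1.45 to 22.5, counting error only).

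**Figure D3:**
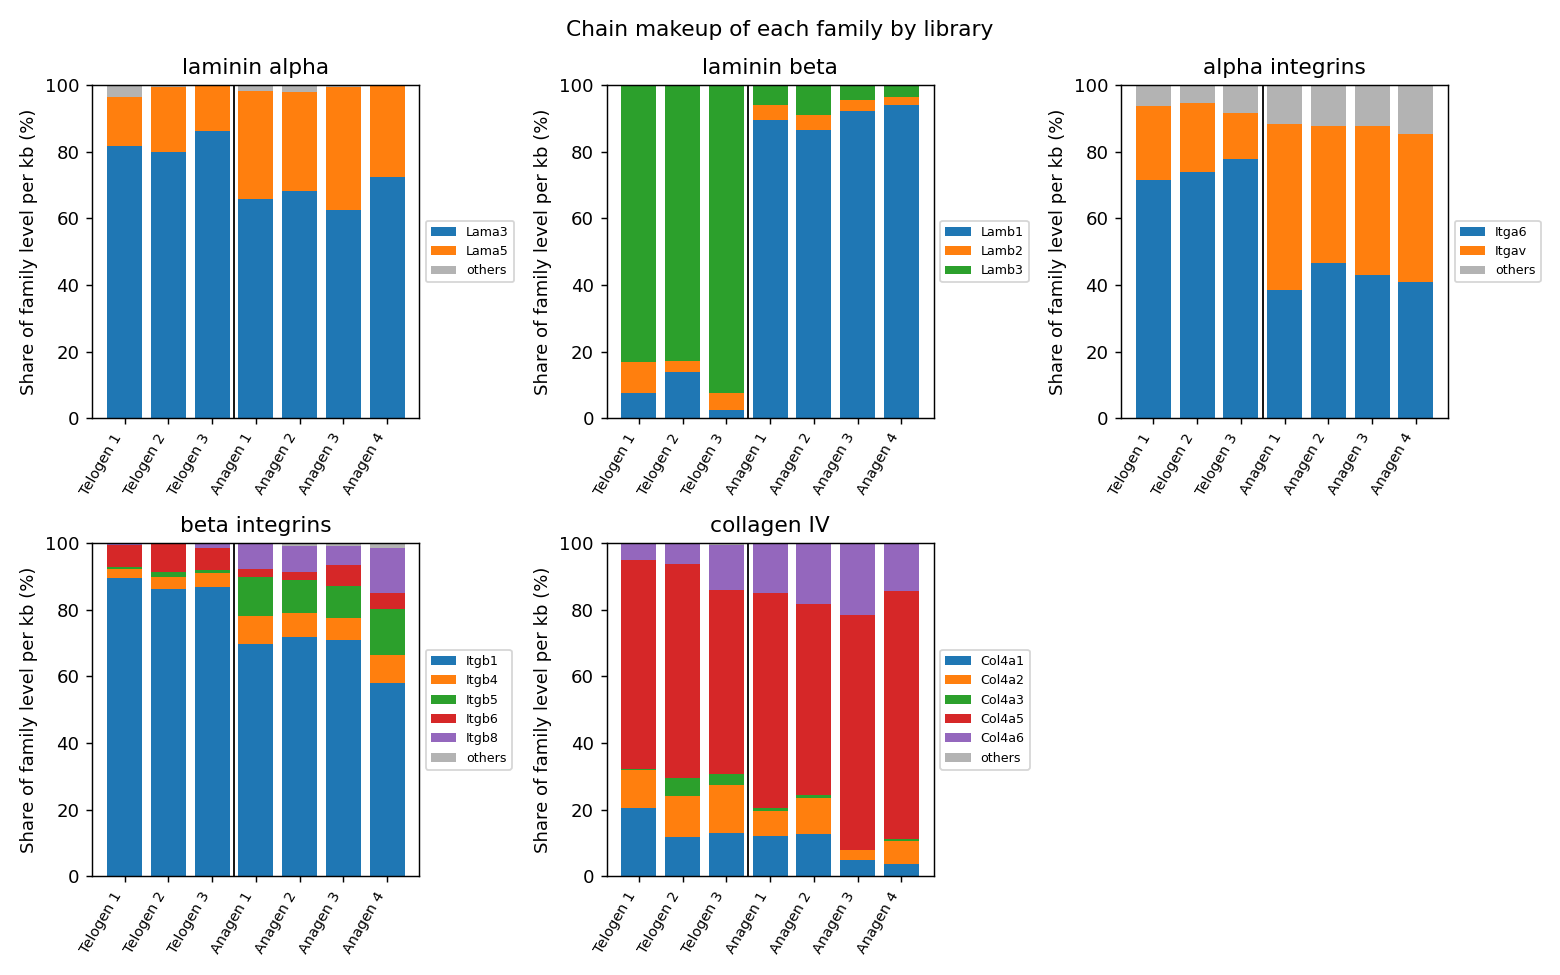
Stacked bars give the share (percent) of each chain in the summed level per kilobase of its class, for laminin alpha and beta chains, integrins and collagen IV, in each of the 3 Telogen and 4 Anagen libraries. The laminin beta panel changes most, with Lamb3 averaging 86.1% in Telogen and 5.83% in Anagen.

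Of 7 tested collagen IV chains and nidogens, 1 was higher in Telogen, 2 were lower and 4 were not called (42.9% called, against 49.5% of all genes). Col4a6, a chain of epithelial basement membranes whose gene lies head to head with Col4a5, was at 9.08, 10.4 and 16.6 CPM in Telogen, against 28.4, 30.8, 33.7 and 28.3 CPM in Anagen. All Telogen values were below all Anagen values (-1.33 ± 0.30, 2.52-fold, edgeR adjusted p = 0.00381), and with GC and length offsets the difference was -0.52 (adjusted p = 0.148). Its neighbour Col4a5 was the most abundant collagen IV chain per kilobase, with 60.8 ± 4.91% of the summed level in Telogen and 66.7 ± 7.53% in Anagen. Col4a5 averaged 96.6 ± 26.2 CPM in Telogen and 117 ± 20.4 CPM in Anagen and did not pass the test (edgeR adjusted p = 0.374).

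The nidogens moved in opposite directions at low level. Nid1 had no Telogen counts, against 7.78, 6.62, 2.51 and 3.002 CPM in Anagen, and was at least 28.3-fold lower in Telogen (edgeR adjusted p = 0.000945). Its higher Anagen values were in libraries 1 and 2, and without them it was still called by edgeR (adjusted p = 0.016). Nid2 was at 6.05, 1.60 and 0.793 CPM in Telogen, against 0, 0.331, 0.129 and 0.429 CPM in Anagen. The groups of Nid2 did not overlap (3.59 ± 1.10, 12.05-fold, edgeR adjusted p = 0.0192). The call was lost without Telogen 1, the library with the highest value (5.16-fold, edgeR adjusted p = 0.171), and without Anagen 1 and Anagen 2 (9.75-fold, adjusted p = 0.0818).

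Col4a1 and Col4a2, the ubiquitous chains encoded head to head, can share reads at their common start where strand is not used. Col4a1 averaged 24.7 ± 11.01 CPM in Telogen and 15.05 ± 8.60 CPM in Anagen, and Col4a2 19.5 ± 1.98 CPM in Telogen and 12.2 ± 5.77 CPM in Anagen. Neither was called (edgeR adjusted p = 0.235 and 0.214). With GC and length offsets the log2 fold changes were 1.69 for Col4a1 and 1.71 for Col4a2 (edgeR adjusted p = 0.0148 and 0.00751). In Anagen, Col4a1 was at 23.1 and 21.8 CPM in libraries 1 and 2, which had the highest fibroblast sums, and at 7.79 and 7.43 CPM in libraries 3 and 4. Without Anagen 1 and Anagen 2 its log2 fold change was 1.70 (edgeR adjusted p = 0.0264). Col4a3 was at 0.178, 12.6 and 5.55 CPM in Telogen, against 2.02, 2.15, 0.0644 and 1.64 CPM in Anagen (adjusted p = 0.139 by edgeR, and 0.0379 without Telogen 1). Col4a4 was at or under 0.639 CPM in every library.

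**Figure D4:**
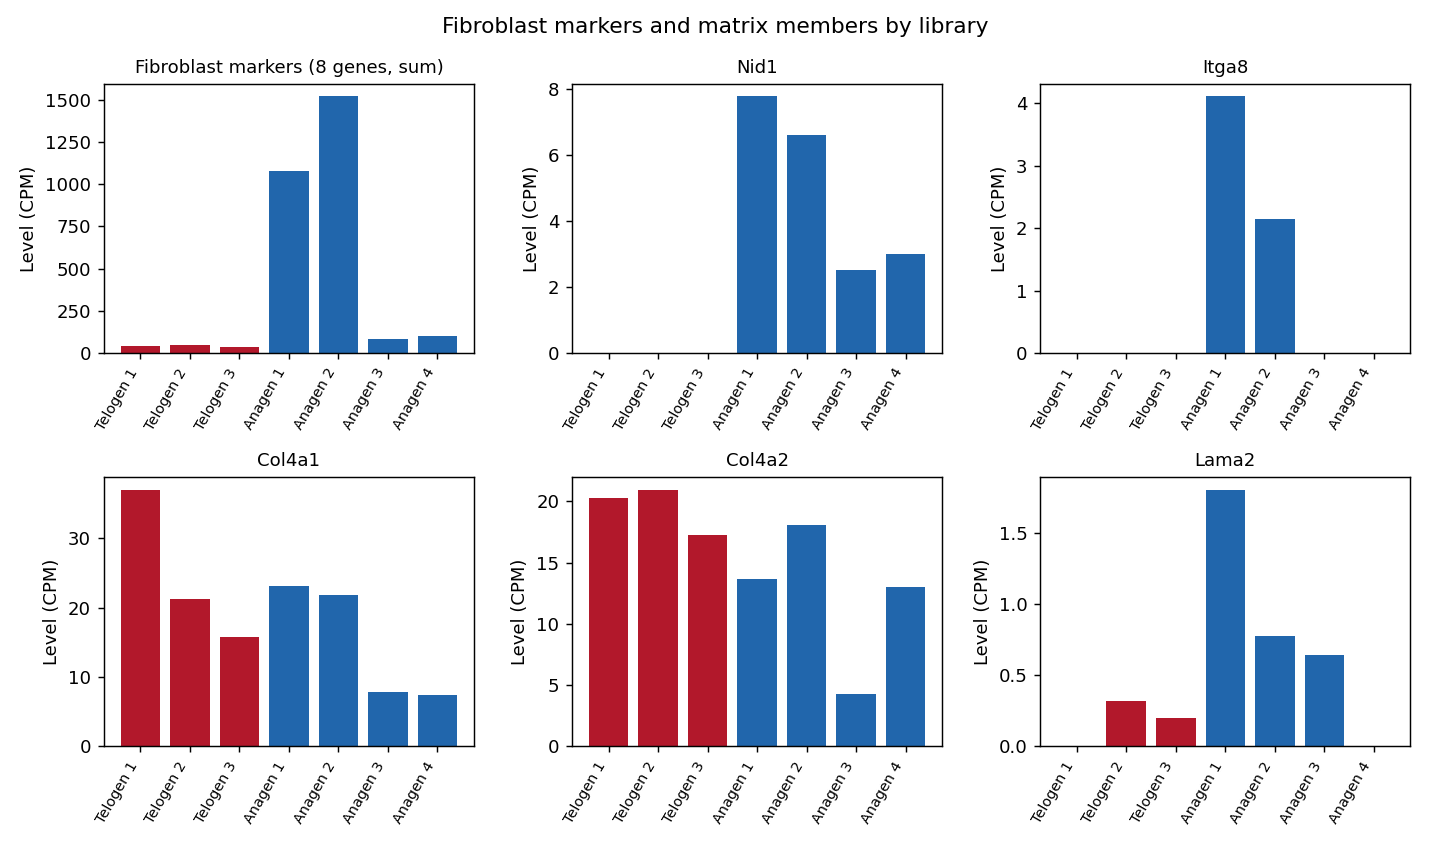
Bars give the level in CPM of 8 summed fibroblast markers and of Nid1, Itga8, Col4a1, Col4a2 and Lama2 in each of the 3 Telogen and 4 Anagen libraries. Anagen 1 and Anagen 2 stand apart at 1079 and 1520 CPM of fibroblast markers. Nid1, Itga8, Col4a1, Col4a2 and Lama2 are higher in those 2 libraries than in Anagen 3 and Anagen 4. For Col4a2 the gap is narrow, with 13.7 CPM in Anagen 1 and 13.0 CPM in Anagen 4. The 5 members drawn were picked with their values known. Lamb1 and Lama5, not drawn, went the other way, with Lamb1 at 243, 253, 308 and 340.4 CPM in Anagen 1 to 4.

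Npnt (NM_001287101, mm10 chromosome 3, 132881745 to 132950291), a ligand for Itga8 that the bulge lays down where the arrector pili muscle attaches, had the largest fold of any tested member with counts in both groups. It was at 194, 179.5 and 197 CPM in Telogen, against 4.32, 1.10, 0.902 and 4.15 CPM in Anagen. The Telogen values were closely alike and far above Anagen (log2 fold change 6.19 ± 0.52, edgeR adjusted p = 6.98e-06). Hspg2, which encodes perlecan, was at 12.8, 5.11 and 7.93 CPM in Telogen, against 36.7, 27.5, 23.9 and 30.3 CPM in Anagen. It was 3.44-fold lower without overlap (-1.78 ± 0.36, edgeR adjusted p = 0.00208), and with GC and length offsets the difference was -0.23 (adjusted p = 0.580), with 60.9% GC in its transcript. Agrn, the heparan sulfate proteoglycan agrin, was at 202, 173 and 196 CPM in Telogen, against 209, 217, 215 and 215 CPM in Anagen, without overlap or a call (-0.17 ± 0.16, edgeR adjusted p = 0.417). With those offsets Agrn turned to 0.83 (adjusted p = 0.00148).

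In order of level per kilobase, Telogen was led by Col17a1, Itgb1, Itga6, Cd151 and Npnt, at 315 ± 21.6, 289.8 ± 83.1, 140.4 ± 33.6, 45.3 ± 4.39 and 39.7 ± 1.91 CPM per kilobase (SD, n = 3). The libraries of Col17a1 and Itgb1 overlapped, while those of the next neighbours did not. In Anagen the order was led by Itgb1, Cd151, Lamb1, Itgav and Itga6, at 84.8 ± 17.6, 56.9 ± 2.23, 49.2 ± 7.94, 33.2 ± 1.26 and 31.3 ± 4.95 CPM per kilobase (SD, n = 4). There Cd151 overlapped with Lamb1 and Itgav with Itga6. Of the 48 genes, Col17a1 ranked 1 in Telogen and 12 in Anagen, Npnt 5 in Telogen and 32 in Anagen, and Lamb1 22 in Telogen and 3 in Anagen.

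Around these genes, other parts of the adhesion machinery were read from 3 lists. The lists were drawn up with earlier results of these data known and were not tested against other genes. Genes named from them were picked as called and without overlap between phases. Of 30 tested genes for integrin adaptors and activators, the cytoplasmic proteins that couple integrins to actin, 8 were higher in Telogen, 13 lower and 9 not called (70.0% called, against 49.5% of all genes; median log2 fold change -0.28, against -0.094). The tensins Tns2 and Tns1, which link Itgb1 integrins to actin, rose: Tns2 was at 77.1, 79.8 and 39.6 CPM in Telogen, against 3.60, 2.70, 5.09 and 1.86 CPM in Anagen (4.30 ± 0.40, edgeR adjusted p = 1.31e-05). Tns1 was at 182, 122 and 161 CPM in Telogen, against 12.4, 9.65, 6.38 and 5.22 CPM in Anagen (4.20 ± 0.33, edgeR adjusted p = 4.27e-06). Neither tensin overlapped between phases, which was a condition for naming them.

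Ptk2, the focal adhesion kinase, fell to 9.97, 15.3 and 19.02 CPM in Telogen, against 86.2, 80.7, 124 and 102 CPM in Anagen (-2.73 ± 0.30, edgeR adjusted p = 3.73e-05). Its groups did not overlap, again by the way it was picked.

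Among 22 tested genes for other basement membrane proteins and integrin ligands, 10 were higher in Telogen, 7 lower and 5 not called (77.3% called, against 49.5% of all genes; median 0.97, against -0.094). Fbln1, a fibulin of elastic and basement membrane matrix, was at 50.2, 59.8 and 44.0 CPM in Telogen, against 2.88, 2.26, 1.35 and 0.643 CPM in Anagen (4.83 ± 0.45, 28.5-fold, edgeR adjusted p = 1.24e-05), and the fold was 50.4 without Anagen 1 and Anagen 2. Bgn, a small leucine-rich proteoglycan, was at 5.16, 3.68 and 3.57 CPM in Telogen, against 228, 243, 198 and 249 CPM in Anagen (-5.79 ± 0.26, edgeR adjusted p = 1.57e-07). Its values in Anagen 3 and Anagen 4 spanned those in Anagen 1 and Anagen 2, the libraries with the highest fibroblast sums.

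Fras1, which anchors epidermis to dermis in mouse embryos, was at 2.49, 5.27 and 3.17 CPM in Telogen, against 107, 87.2, 106 and 113 CPM in Anagen (-4.81 ± 0.32, edgeR adjusted p = 1.69e-06). Ntn4, a netrin that binds laminin and disrupts its network, was at 2.14, 0.320 and 2.97 CPM in Telogen, against 32.3, 25.9, 42.2 and 51.6 CPM in Anagen (-4.42 ± 0.57, edgeR adjusted p = 0.000116). None of these 4 genes overlapped between phases, which was a condition for naming them.

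Of 14 non-integrin matrix receptors, 6 were higher in Telogen, 5 lower and 3 not called (78.6% called, against 49.5% of all genes; median 0.093, against -0.094). Cspg4, a chondroitin sulfate proteoglycan of the cell surface, was at 75.5, 76.6 and 44.2 CPM in Telogen, against 7.49, 8.21, 2.25 and 4.503 CPM in Anagen (3.54 ± 0.43, 11.6-fold, edgeR adjusted p = 7.78e-05), and the fold was 19.3 without Anagen 1 and Anagen 2. Sdc1, a syndecan with heparan sulfate chains, was at 456, 334 and 305 CPM in Telogen, against 1773, 1589, 1815 and 1501 CPM in Anagen (-2.19 ± 0.20, edgeR adjusted p = 1.12e-05). Cspg4 and Sdc1 thus moved in opposite directions, without overlap by the way they were picked.

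Gpc1, a glypican, was at 4.63, 11.99 and 4.36 CPM in Telogen, against 41.5, 39.5, 35.8 and 24.4 CPM in Anagen (-2.33 ± 0.41, edgeR adjusted p = 0.00097), 5.01-fold lower and 7.88-fold without Telogen 2. Hmmr, a hyaluronan receptor that also acts at the mitotic spindle, had 2 counts in Telogen, both in Telogen 3, and 9.005, 9.37, 10.1 and 8.93 CPM in Anagen. By counts it was 79.3 times lower in Telogen (95% interval 21.9 to 657, counting error only).

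GC and length offsets also moved the following by over 1.5 times, with direction and call kept. Higher in Telogen, the log2 fold change became 5.88 for Col17a1, 3.97 for Lamb3, 1.86 for Lama3, 2.47 for Itga3 and 4.35 for Nid2. Lower in Telogen, it became -3.34 for Lamb1 and -1.53 for Itgb5. In the other lists it became 5.37 for Tns1, 5.20 for Tns2, 5.53 for Fbln1, 4.68 for Cspg4, -3.42 for Fras1, -1.44 for Gpc1 and -1.54 for Sdc1.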

How the data were processed

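The deposited table gives raw read counts and RPKM for 15415 genes in 3 Telogen and 4 Anagen samples, per the file headers. Per the submitters' processing notes, reads were placed on mm10. The aligner, counter and use of strand were not given in the sources used here, so reads of overlapping or antisense genes and of close copies are uncertain. The deposited RPKM equalled count over length and total in 107905 of 107905 values (relative tolerance 1e-09), so the authors' counts were used throughout. Each Telogen library held 5097457 to 6453337 counts and each Anagen library 13719893 to 17042690.

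Counts were fitted with edgeR 4.0.16 in R 4.3.3 (quasi-likelihood test, robust, TMM factors, no covariate) after its expression filter (minimum count 10, minimum total 15), with Benjamini-Hochberg adjustment over 12266 genes and a threshold of 0.05. The SE is the log2 fold change over the square root of F. CPM use the TMM-scaled total, and levels between genes are per kilobase of the deposited length. A group at 0 counts was set to 3 counts over the group, and ratios with 1 to 3 counts have exact 95% intervals. GC content came from GENCODE M21 transcripts (found for 96.6% of genes). Promoters came from RefSeq (GRCm38.p6, the same build as mm10). The script was tested on simulated data.

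The members and lists were chosen with earlier results of these data known. Values per library are given for the hemidesmosome genes, Itgb1, and up to 4 members of each role group and list with the largest called change without overlap; values of other members and genes were chosen after seeing them. Alternatives were DESeq2 size factors, DESeq2 1.42.0, no filter, a 2-fold minimum, each library left out, Anagen 1 and Anagen 2 left out, a replicate block, and GC and length offsets. A few genes that this rule names are counted in the totals but not reported here.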

Additional observations from a re-analysis of the deposited data

Results flagged for a closer look

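Of 60 genes examined for a library far from the other 3 in Anagen, 4 stood out, where chance flags about 1 in 20 groups. The gap to the nearest library, as a share of the range, was 0.965 for Itga10, with Anagen 4 highest at 4.86 CPM. For Itga11 it was 1, with the 0.143 CPM of Anagen 4 the only value above 0. For Itgb3 it was 1 as well, with the 0.551 CPM of Anagen 2 the only value above 0. For Lama4 it was 0.882, with Anagen 2 at 1.21 CPM. All 4 genes were low in Anagen, and only Itga10 had counts high enough to be tested (edgeR adjusted p = 0.243, not called). Telogen, with 3 libraries, was not examined this way.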

How the results depend on the processing

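Over all settings run except the 2-fold minimum, 15 of the 23 called members kept their call wherever they were tested. Of the 15 others, 2 kept their sign and stayed uncalled. With the 2-fold minimum 20 of the 23 stayed called. Leaving out 1 library gave 11 to 12 members higher and 8 to 12 lower, of 35 to 42 tested. Over all genes these runs gave 2526 to 2802 higher and 2587 to 3208 lower, of 11721 to 12660 tested. Replicate numbers did not pair the samples (correlations of deviations 0.00424, 0.0788 and -0.0451). With the replicate block 11 members were higher and 8 lower, beside 2289 and 2497 of 12266 genes tested. With GC and length offsets 17 members were higher and 8 lower, beside 2831 and 2488 of 11884 genes tested. With the block and offsets together 16 members were higher and 5 lower in Telogen, beside 2237 and 1857 of 11884 genes. With the same offsets, then with block and offsets, these uncalled members turned: Agrn 0.83 and 0.80, Col4a5 0.47 and 0.49, Itga5 0.65 and 1.01, Lama5 0.96 and 0.90, Lamb2 0.84 and 0.63, Lamc1 0.089 and 0.11. Other turns were Itga5 0.28 without Anagen 4 and 0.20 with the block, Itgam -1.50 without Telogen 1, -0.15 without Anagen 2, -0.14 without Anagen 1 and Anagen 2 and -0.048 with the block, Itgav -0.086 without Telogen 2, and Lamb2 0.17 without Telogen 2, 0.042 without Telogen 3 and 0.10 without Anagen 1 and Anagen 2. Over the libraries left out in turn, Itga5 ran between -0.76 and 0.28, Itgam between -1.50 and 0.81, Itgav between -0.086 and 0.14 and Lamb2 between -0.55 and 0.17. The cause was not tested. Itga2b lost its call with the replicate block (edgeR adjusted p = 0.0819, and 0.00792 to 0.119 over all settings that tested it). Itga2b, Itgb2 and Nid2 were too low to be tested without some or each of the Anagen libraries. Depth limits the 10 untested members and those at 0 in Telogen. There a level under 0.177 CPM over the group (3 counts) could have been missed.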

Other observations

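Markers of 3 other cell types belong to no comparison above. Melanocyte genes (5 in the table) summed to 166 to 319 CPM in Telogen and 19.6 to 24.7 CPM in Anagen. Mitf alone was at 158 to 307 CPM in Telogen and 4.89 to 13.8 CPM in Anagen, while Pmel went the opposite way, at 3.38 to 5.75 CPM in Telogen and 7.55 to 14.9 CPM in Anagen (log2 fold change -1.20, edgeR adjusted p = 0.0287). Schwann cell genes (7 in the table) summed to 11.9 to 13.1 CPM in Telogen and 92.9 to 119 CPM in Anagen, with S100b at 0 in Telogen. Adipocyte genes (3 in the table) summed to 0 to 4.48 CPM in Telogen and 0 to 2.48 CPM in Anagen.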
